A study of Mus musculus with 2 samples.

Results

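Bone morphogenetic proteins (BMPs) were followed from the cells that held their transcripts to the cells that held their receptors in mouse liver. The 10 genes described were 6 ligands (Bmp2, Bmp4, Bmp5, Bmp6, Bmp10 and Gdf2, which encodes BMP9), 3 receptors or co-receptors prominent in endothelium (Bmpr2, Acvrl1 and Eng) and 1 immediate target (Id1). They were taken as a pathway set whatever their values, matched by Ensembl identifier, and are 10 of the 30406 genes listed in both count matrices. All 10 had at least 10 unique molecular identifiers (UMIs, the tags that count single captured RNA molecules) in each library, with totals from 10 to 45225 (healthy) and from 788 to 24080 (CCl4).

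BMP ligands are secreted dimers of the transforming growth factor beta superfamily. They bring together type 1 and type 2 serine/threonine kinase receptors, which phosphorylate SMAD1, SMAD5 and SMAD9, and the phosphorylated SMADs enter the nucleus with SMAD4 and switch on genes such as those of the Id family. In liver, BMP2 and BMP6 from sinusoidal endothelium are known to drive hepcidin expression in hepatocytes, and BMP9 and BMP10 are circulating ligands that signal to endothelium through ALK1 (encoded by Acvrl1), with endoglin (Eng) as co-receptor.

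The study compared liver cells of healthy mice with those of mice given repeated injections of carbon tetrachloride (CCl4), a hepatotoxin that produces chronic injury and fibrosis. There was 1 single-cell library per group. Both libraries came from liver of Col1a2CreER:Rosa26tdTomato mice, in which a tamoxifen-dependent Cre under a collagen promoter can mark collagen-producing cells with a red fluorescent protein; the marked cells were not distinguished here. Mice of both sexes on a C57BL/6 background were used in the study, and they were young adults when the CCl4 injections began. The injections ran over many weeks, so the injured mice were older when their cells were taken. The number of mice behind each library, their sex and any pooling were not given in the sources used here. The livers were perfused and digested enzymatically, the cells were taken from a density gradient and most CD45-positive leukocytes were removed with magnetic beads, steps that can set which classes of cell were recovered.

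With 1 library per group there was no replicate check, and no test across animals was possible. Injury, library and processing software cannot be told apart, since the headers of the matrices name different versions of Cell Ranger. Levels are given as CPM, the UMIs of a gene per 1000000 UMIs of a class or cluster in 1 library, so that every CPM is a level and not a difference. Intervals are exact 95% intervals that cover counting error only. Filtering left 5605 cells from healthy and 7318 from CCl4 livers, with median depths of 6797 and 11909 UMIs, and 10 cell barcodes occurred in both libraries. All members and the other genes of the pathway were kept out of the genes used for clustering, and no member served as a marker of a class.

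Clusters were given a class from marker genes. Endothelial-like cells made up 63.5% of healthy cells (3559) and 8.79% of CCl4 cells (643). Only 9 healthy cells were mesenchymal-like (stellate cells and fibroblasts), against 2997 CCl4 cells, or 41.0%. Mesothelial-like cells, which line the liver surface, numbered 235 and 959, cholangiocyte-like cells (bile duct epithelium) 1230 and 22, and immune cells of all kinds 14 and 421. The samples are labelled as whole liver cells, but only 80 cells, all healthy, were named hepatocyte-like. A further 245 healthy and 336 CCl4 cells lay in 2 clusters in which hepatocyte markers were the most numerous, which stayed unnamed because their UMIs per cell were low and no hepatocyte marker was among their leading genes. Clusters without a clear class held 8.53% of healthy and 31.1% of CCl4 cells. Because of these proportions, each library was read first on its own, and only endothelial-like and mesothelial-like cells were compared between libraries. Different clusters held most of these classes in the 2 libraries.

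Promoter sequences are shown first for the genes to which the results below return. Bmp5, Bmp10 and Gdf2 are the ligands with their highest level in the same cell class of the CCl4 library, and Id2 and Id4 are targets at lower levels in endothelial-like cells of that library. Each line gives the 250 bases that precede the annotated start of transcription, 5′ to 3′ on the strand of the gene, from RefSeq (GRCm38.p6). The windows lie at chr9:75775115-75775364, plus strand (Bmp5), chr6:87428744-87428993, plus strand (Bmp10), chr14:33940789-33941038, plus strand (Gdf2), chr12:25096093-25096342, minus strand (Id2) and chr13:48260866-48261115, plus strand (Id4). In the first 3, capitals mark AGATAA on either strand (TTATCT on the other), letters bound by factors of the GATA family, which were chosen after the windows had been read. In the last 2, capitals mark GGCGCC, a palindrome bound by BMP-activated SMADs.
Bmp5: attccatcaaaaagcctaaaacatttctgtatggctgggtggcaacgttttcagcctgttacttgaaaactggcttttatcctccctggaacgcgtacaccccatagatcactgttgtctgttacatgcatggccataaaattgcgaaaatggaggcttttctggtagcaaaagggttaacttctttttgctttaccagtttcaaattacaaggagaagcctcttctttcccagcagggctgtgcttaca
Bmp10: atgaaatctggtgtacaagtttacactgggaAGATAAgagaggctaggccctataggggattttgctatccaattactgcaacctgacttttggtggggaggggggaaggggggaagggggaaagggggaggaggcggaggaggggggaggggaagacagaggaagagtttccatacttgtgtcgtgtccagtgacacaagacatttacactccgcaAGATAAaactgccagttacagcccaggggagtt
Gdf2: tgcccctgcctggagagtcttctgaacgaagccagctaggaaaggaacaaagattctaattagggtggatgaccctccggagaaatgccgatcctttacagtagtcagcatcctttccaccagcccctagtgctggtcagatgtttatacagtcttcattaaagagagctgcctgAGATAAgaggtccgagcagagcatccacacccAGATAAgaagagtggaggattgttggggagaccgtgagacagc
Id2: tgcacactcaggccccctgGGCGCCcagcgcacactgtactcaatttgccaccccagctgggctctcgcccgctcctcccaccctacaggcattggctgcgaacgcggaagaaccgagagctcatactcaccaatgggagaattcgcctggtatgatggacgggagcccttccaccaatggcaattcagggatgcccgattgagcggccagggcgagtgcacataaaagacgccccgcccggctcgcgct
Id4: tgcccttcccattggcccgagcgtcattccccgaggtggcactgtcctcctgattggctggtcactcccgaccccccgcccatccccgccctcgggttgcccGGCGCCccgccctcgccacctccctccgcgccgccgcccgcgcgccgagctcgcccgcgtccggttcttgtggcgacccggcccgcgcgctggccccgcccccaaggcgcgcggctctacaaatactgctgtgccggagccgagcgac
AGATAA occurred at 2 places in the Bmp10 window, 219 and 33 bases before the start, and at 2 places in the Gdf2 window, 75 and 43 bases before it. The Bmp5 window held none, and the windows of Hamp and Hamp2, which are not ligands, held 1 each. Among all 32851 windows of the same length, 9.99% held these letters at least once and 0.938% at least at 2 places. GGCGCC occurred once each in the Id2 window, 231 bases before the start, and in the Id4 window, 148 bases before it, and in 9.59% of all windows. It also occurred in the windows of Bmpr2 and Hamp. The windows of Id3, Atoh8, Hamp2 and Smad6, genes also at lower levels in CCl4 endothelial-like cells, held none. These matches describe letters only. Windows were found for 7 of the 10 members and for 8 of the 10 other targets. The windows of Bmp2, Acvrl1 and Id1 were not analysed here.

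**Figure D1:**
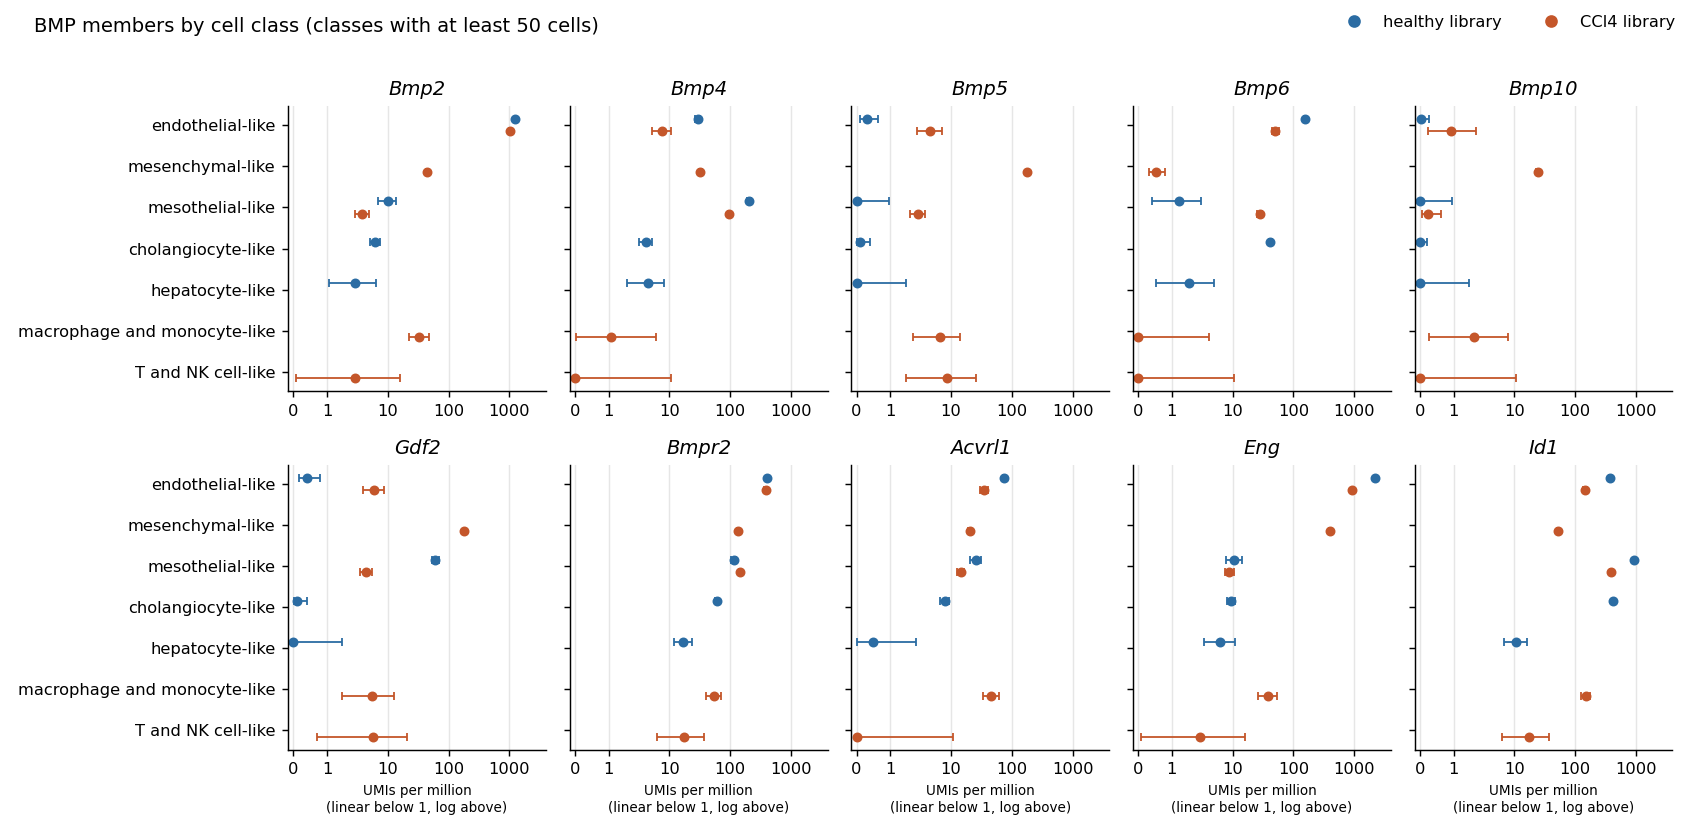
Levels of the 10 members in each cell class with at least 50 cells (CPM, linear below 1 and logarithmic above), healthy library in blue and CCl4 library in orange, with exact 95% Poisson intervals. Bmp2 lies at 1246 and 1031 in endothelial-like cells, and Bmp5, Bmp10 and Gdf2 are highest in mesenchymal-like cells of the CCl4 library.

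In the healthy library, 5 of the 8 members with enough UMIs for a ranking over the 4 classes of at least 50 cells were highest in endothelial-like cells (Bmp2, Bmp6, Bmpr2, Acvrl1 and Eng), beside 36.2% of all ranked genes. The remaining 3 (Bmp4, Gdf2 and Id1) were highest in mesothelial-like cells, beside 18.0% of all ranked genes. Bmp5 and Bmp10 had under 10 UMIs in these classes and were not ranked. In the CCl4 library, with 8 classes, Bmp2, Bmp6, Bmpr2 and Eng were highest in endothelial-like cells (4 of 10 members, 18.8% of all genes), Bmp5, Bmp10 and Gdf2 in mesenchymal-like cells (3 of 10, 15.8%) and Bmp4 and Id1 in mesothelial-like cells (2 of 10, 17.4%). Acvrl1 was highest in macrophage and monocyte-like cells. These counts rest on 8 and 10 genes and were not tested. Gdf2 and Acvrl1 had a different leading class in the 2 libraries, but mesenchymal-like and macrophage and monocyte-like cells were too few to be ranked among healthy cells.

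**Figure D2:**
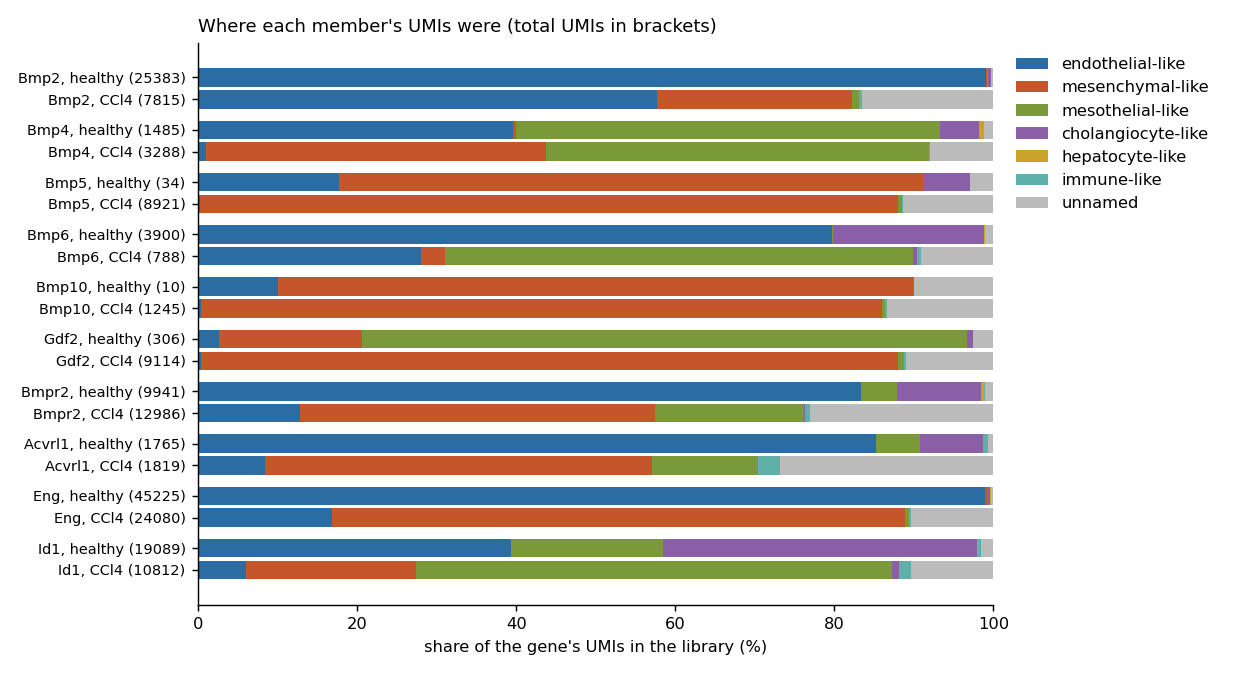
Share of each member's UMIs (%) that came from each cell class in each library, with the member's UMI total in brackets. Endothelial-like cells hold 99.0% of healthy but 16.9% of CCl4 Eng UMIs, and mesenchymal-like cells hold 72.0% of the latter.

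Bmp2, an osteogenic BMP that in liver is a ligand of the hepcidin pathway, was an endothelial transcript in both libraries. Its level was 1246 CPM in healthy endothelial-like cells (95% interval 1231 to 1262) and 1031 in CCl4 endothelial-like cells (1002 to 1062). In cholangiocyte-like cells of the healthy library it was 6.13, and in T and NK cell-like cells of the CCl4 library, taken as a level for cells that should lack it, it was 2.88. At 2000 UMIs per cell, 80.3% of healthy and 73.9% of CCl4 endothelial-like cells had a Bmp2 UMI (85.6% and 83.8% unthinned), beside 0.505% of T and NK cell-like cells (1.27% unthinned). Their median depths were 5900, 6602 and 4285 UMIs in that order. The class thus held 99.1% of healthy and 57.7% of CCl4 Bmp2 UMIs, and CCl4 mesenchymal-like cells supplied 24.6% at a level of 43.9.

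The macrophage and monocyte-like level of 32.7 for Bmp2 in the CCl4 library rested on few cells. Of its 30 UMIs, 27 lay in 1 cell of the cluster led by Cd163, Timd4 and Clec4f, genes of resident macrophages. It is therefore not read as a level of that class.

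Bmp6, the BMP that responds to iron loading of the liver, was also highest in endothelial-like cells, at 154 CPM in the healthy library (149 to 160) and 50.6 in the CCl4 library (44.2 to 57.7). Cholangiocyte-like cells formed another source in the healthy library, at 41.8, with 19.1% of its UMIs. In the CCl4 library the largest share of Bmp6 UMIs came from mesothelial-like cells, 58.9% against 28.1% from endothelial-like cells. Mesothelial-like cells had a level of 27.9 there (25.5 to 30.6), and only 5 UMIs, a level of 1.30, in the healthy library. Mesenchymal-like cells there were at 0.525, below the 1.89 of immune cells.

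Bmp4, known from mesoderm patterning and smooth muscle, had its highest class level in mesothelial-like cells of both libraries, 206 CPM in healthy (192 to 221) and 95.4 in CCl4 (90.7 to 100.2). Endothelial-like cells were at 29.1 and 7.56. Mesenchymal-like cells of the CCl4 library were at 32.1 (30.4 to 33.8) and, being many, held 42.7% of its UMIs, next to 48.2% from mesothelial-like cells. At 2000 UMIs per cell a Bmp4 UMI was found in 31.3% of healthy and 16.5% of CCl4 mesothelial-like cells (81.7% and 62.2% unthinned, at median depths of 18285 and 16946 UMIs), and in 0 of the T and NK cell-like cells.

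Bmp5, Bmp10 and Gdf2 formed a separate group, held by mesenchymal-like cells of the CCl4 library. Bmp5 stood at 179 CPM there (175 to 183), Bmp10 at 24.4 (22.9 to 25.9) and Gdf2 at 183 (179 to 187). In all immune cells of the same library together, which should lack these transcripts, the levels were 6.61 for Bmp5, 1.42 for Bmp10 and 9.44 for Gdf2. The mesenchymal-like share of the library's UMIs was 87.7% for Bmp5, 85.7% for Bmp10 and 87.7% for Gdf2. With each cell thinned to 2000 UMIs, 28.1% of mesenchymal-like cells had a Bmp5 UMI, 27.5% a Gdf2 UMI and 4.71% a Bmp10 UMI (76.8%, 70.1% and 23.0% unthinned), against 1.71%, 1.003% and 0% of T and NK cell-like cells (3.80%, 2.53% and 0% unthinned). For Bmp10, 0 UMIs in 79 such cells allow a share of up to 3.80% of cells with a UMI.

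The Gdf2 level of 30.5 in B and plasma cell-like cells came from 7 UMIs (12.3 to 62.9). It was the highest Gdf2 level among the other named classes of that library.

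**Figure D3:**
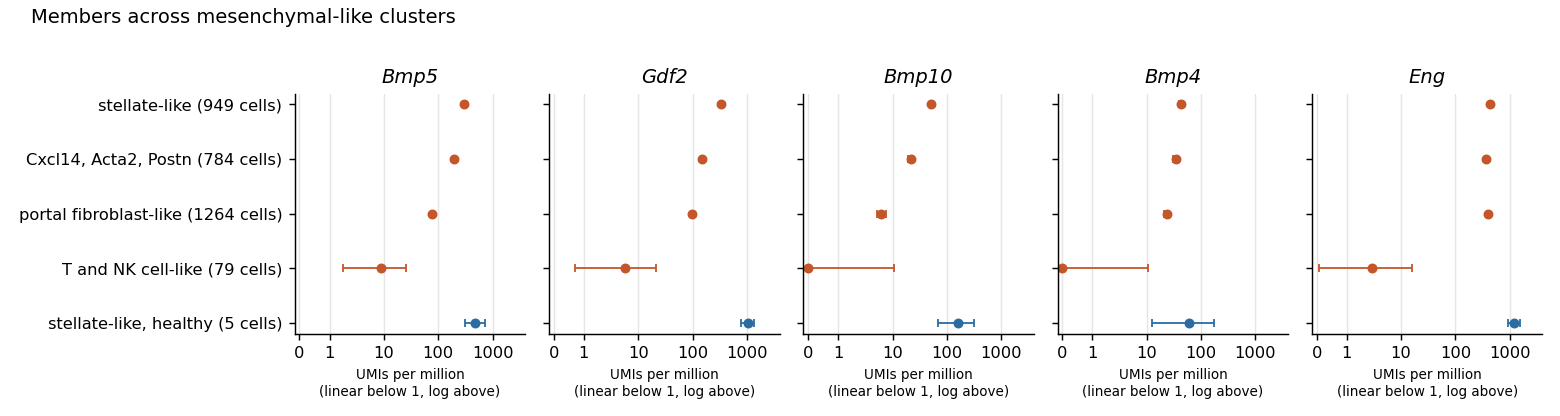
Levels of 5 members in the mesenchymal-like clusters of the CCl4 library and, for comparison, in T and NK cell-like cells and in the 5 healthy cells of the stellate-like cluster (CPM, linear below 1 and logarithmic above, with exact 95% Poisson intervals). Bmp5, Gdf2 and Bmp10 are highest in the stellate-like cluster and lowest of the 3 clusters in portal fibroblast-like cells, while Eng lies between 362 and 430 in all 3.

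Within the mesenchymal-like class the ligands were graded. Hepatic stellate cells are the vitamin A-storing pericytes of the sinusoid, and the stellate-like cluster (949 cells, led by Angptl6, Colec10 and Rgs5) had 303 CPM of Bmp5 (294 to 312). The cluster led by Cxcl14, Ereg and Acta2, the last a contractile gene of activated stellate cells and myofibroblasts (784 cells), had 195 (187 to 203). Portal fibroblast-like cells (1264 cells) had 76.9 (72.9 to 81.1). Gdf2 followed the same order at 330, 148 and 99.0, as did Bmp10 at 51.9, 21.6 and 6.21 and Bmp4 at 42.1, 34.2 and 23.3, and the intervals of the 3 clusters did not overlap for any of these 4 ligands. Bmp2 was at 60.5 and 54.0 in the first 2 clusters, with overlapping intervals, and at 24.7 in portal fibroblast-like cells. Bmp10 was among the leading genes of the stellate-like cluster, which is a description, since the cluster's cells are those in which it was then measured.

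Single cells often held several of these ligands. A UMI of at least 1 of Bmp5, Bmp10 and Gdf2 was present in 98.95% of stellate-like cells, at least 2 of the 3 in 88.6% and all 3 in 39.3% (373 of 949). For the Acta2 cluster these shares were 95.2%, 71.6% and 19.3%, and for portal fibroblast-like cells 78.0%, 35.1% and 4.19%. In T and NK cell-like cells 6.33% had any of the 3 and 0 of 79 had more than 1. These shares were not thinned to a common depth.

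In the healthy library the same ligands were seen in very few cells, and only 9 mesenchymal-like cells were captured. The 5 of them in the stellate-like cluster held 24 Bmp5 UMIs, 8 Bmp10 UMIs and 52 Gdf2 UMIs out of 50114, which are levels of 479 (307 to 713), 160 (68.9 to 315) and 1038 (775 to 1361). Gdf2 and Bmp5 were present in 5 of 5 cells and Bmp10 in 3 of 5. These 5 cells and the other 4 supplied 25 of the library's 34 Bmp5 UMIs, 8 of its 10 Bmp10 UMIs and 55 of its 306 Gdf2 UMIs. The library totals were 34 against 8921 for Bmp5, 10 against 1245 for Bmp10 and 306 against 9114 for Gdf2, and of the healthy Gdf2 UMIs 233 were mesothelial-like. The CPM of all 3 ligands in the 5 healthy stellate-like cells was above that of the CCl4 stellate-like cells, with overlapping intervals for Bmp5. These intervals leave out the spread between the 5 cells, so the levels are not read as a difference for any of the 3. No difference between libraries was computed for a class with 9 cells.

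Gdf2 had a further source in the healthy library. Mesothelial-like cells there held 76.1% of its UMIs, at 60.6 CPM (53.1 to 68.9), with a Gdf2 UMI in 12.3% of cells at 2000 UMIs per cell (52.3% unthinned), against 0.0184% of healthy cholangiocyte-like cells (0.163% unthinned, median depth 11778.5 UMIs). In CCl4 mesothelial-like cells the level was 4.40, below the immune level of that library, and the thinned share was 0.792% (5.42% unthinned). Bmp5 and Bmp10 had 0 UMIs in the healthy mesothelial-like cells. So Gdf2 was the 1 ligand of this group found in healthy mesothelial-like cells.

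The receptors were read next. Bmpr2, the type 2 receptor used by BMP2, BMP4, BMP9 and BMP10 among others, was broadly distributed. It was highest in endothelial-like cells of both libraries, 410 CPM in healthy (402 to 419) and 381 in CCl4 (363 to 400). Mesothelial-like cells had 114 and 147, mesenchymal-like cells of the CCl4 library 132, cholangiocyte-like cells of the healthy library 59.7 and hepatocyte-like cells 16.9. T and NK cell-like cells had 17.3, so only the hepatocyte-like level was as low as that of the lymphoid cells.

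Eng, the endothelial co-receptor endoglin, was at 2218 CPM in healthy endothelial-like cells (2197 to 2239) and 930 in CCl4 endothelial-like cells (902 to 959). Mesenchymal-like cells of the CCl4 library had 396 (390 to 402), with a UMI in 53.7% of cells at 2000 UMIs per cell and in 98.0% unthinned (median depth 14156 UMIs), against 0.845% and 1.27% of T and NK cell-like cells. Through their number they held 72.0% of Eng UMIs in that library. Cholangiocyte-like, mesothelial-like and T and NK cell-like cells were between 2.88 and 10.7.

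Acvrl1, which encodes the type 1 receptor ALK1, was at 74.5 CPM in healthy endothelial-like cells (70.8 to 78.4) and 35.0 in CCl4 endothelial-like cells (29.7 to 41.0). Macrophage and monocyte-like cells of the CCl4 library had 45.8 (33.0 to 61.9) from 42 UMIs, an interval that overlaps the endothelial one. Within that class it was uneven. The cluster led by Fcrls, Ms4a7 and Gpr34 (22 cells) had 101 (63.5 to 153), the Cd163 and Timd4 cluster (32 cells) 48.5 (28.3 to 77.7) and the cluster led by F13a1 and Ly6i, genes of monocytes (53 cells), 3.33 from 1 UMI. T and NK cell-like and B and plasma cell-like cells had 0 Acvrl1 UMIs.

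Bmpr1a, the widely used type 1 receptor ALK3, is a contrast from the wider pathway. It was at 187 CPM in healthy and 152 in CCl4 mesothelial-like cells and at 93.6 in healthy cholangiocyte-like cells, but at 1.98 and 1.603 in endothelial-like cells. The endothelial-like cells of both libraries thus held Acvrl1 and Eng with hardly any Bmpr1a. Acvrl1 was not their only type 1 receptor transcript, since Acvr1, which encodes another one, was at 52.2 in healthy and 41.9 in CCl4 endothelial-like cells. Mesenchymal-like cells of the CCl4 library had Bmpr1a at 83.3 and Acvr1 at 79.1.

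**Figure D4:**
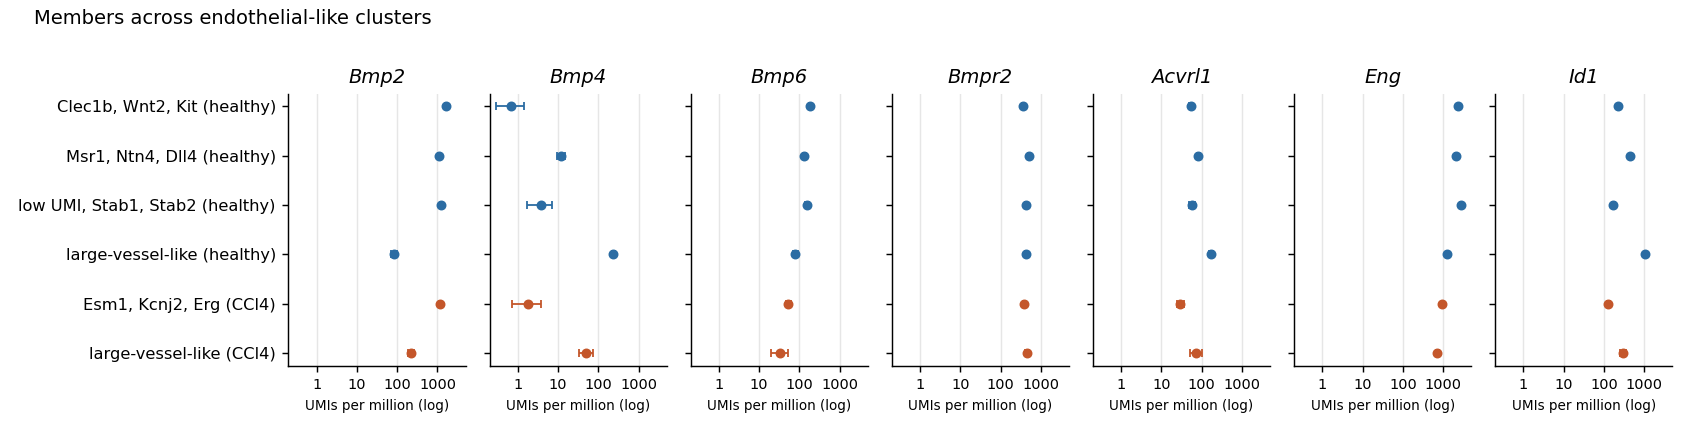
Levels of 7 members in the endothelial-like clusters of the healthy library (blue) and the CCl4 library (orange), in CPM on a logarithmic axis with exact 95% Poisson intervals. Bmp2 is lowest and Bmp4 highest in the large-vessel cluster of each library, and Eng ranges from 1272 to 2723 over the 4 healthy clusters and is at 718 and 955 in the CCl4 clusters.

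Endothelial-like cells were not uniform in ligands or receptors. The healthy class consisted mainly of a cluster led by Clec1b, Wnt2 and Kit, genes of sinusoids near the central vein (1399 cells), a cluster with Msr1, Ntn4 and Dll4, genes of sinusoids near the portal tract (870 cells), a cluster of few UMIs per cell led by genes such as Stab1 and Stab2 (987 cells) and a large-vessel cluster with Vwf, Gja5 and Bmx (268 cells). The CCl4 class consisted of a cluster led by Esm1, Kcnj2 and Erg (576 cells) and 63 cells of the large-vessel cluster. The Mmrn1 and Ccl21a genes of lymphatic vessels were also among the leading genes of the large-vessel cluster. Of the listed markers of central sinusoids, 2 were enriched in the Wnt2 cluster over the other endothelial-like clusters, and 4 in the large-vessel cluster. The latter also had 6 large-vessel markers and 1 of portal sinusoids, and the Dll4 cluster had 2 of portal sinusoids.

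Bmp2 was at 1598 CPM in the Wnt2 cluster, 1078 in the Dll4 cluster, 1224 in the low-UMI cluster and only 83.9 among healthy large-vessel cells. Bmp6 ran in the same direction, at 183, 132, 154 and 79.7. Bmp4 ran the opposite way, at 0.701, 12.1, 3.81 and 234, so that within healthy endothelium it was a large-vessel transcript. Bmp2 in the CCl4 clusters was at 1140 in the Esm1 cluster and 221 in the large-vessel cluster, and Bmp4 at 1.82 and 50.9.

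Acvrl1 was at 53.0, 82.6, 58.8 and 170 over the same 4 healthy clusters and Id1 at 226, 450, 171 and 1072, both highest in the large-vessel cluster. Eng was lowest there, at 1272, against 2399, 2045 and 2723 in the others. Bmpr2 varied least, between 358 and 495. All 3 receptors were detected together in 58.2% of healthy large-vessel cells, 36.0% of the Dll4 cluster, 27.5% of the Wnt2 cluster and 8.41% of the low-UMI cluster, without thinning. In the CCl4 library the shares were 38.1% in the large-vessel cluster and 15.1% in the Esm1 cluster. Portal fibroblast-like cells also held all 3 in 26.1% of cells, against 6.32% of stellate-like cells and 0.407% of healthy cholangiocyte-like cells.

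Acvrl1 ran against the ligands in the mesenchymal-like clusters, at 7.06 CPM in the stellate-like cluster, 16.8 in the Acta2 cluster and 32.3 in portal fibroblast-like cells, and the 3 intervals did not overlap. Id1 was at 40.3, 40.2 and 70.8. The cluster with the most Bmp5, Bmp10 and Gdf2 was therefore the one with the least Acvrl1 in this class. A CCl4 cluster of 95 cells with markers of both endothelial and mesenchymal cells was not assigned to either class. It held Bmp2 at 527 and Eng at 711 together with Bmp5 at 276, Gdf2 at 303 and Bmp10 at 48.3, and its share of doublets was not tested.

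Id1, an inhibitor of basic helix-loop-helix factors and an early BMP target in many cells, was highest in mesothelial-like cells, at 949 CPM in healthy (919 to 981) and 390 in CCl4 (381 to 400). Healthy cholangiocyte-like cells were at 425 and endothelial-like cells at 372, and CCl4 endothelial-like cells at 147. Macrophage and monocyte-like cells of the CCl4 library had 149, close to the endothelial-like level. Hepatocyte-like cells had 10.6. Mesenchymal-like cells of the CCl4 library had 52.8 and T and NK cell-like cells 17.3. Other targets were not all low in these mesenchymal-like cells. Id3 was at 1815 and Atoh8 at 43.2 in them, for each gene the highest of the ranked classes of that library, whereas Id4 was at 3.17.

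**Figure D5:**
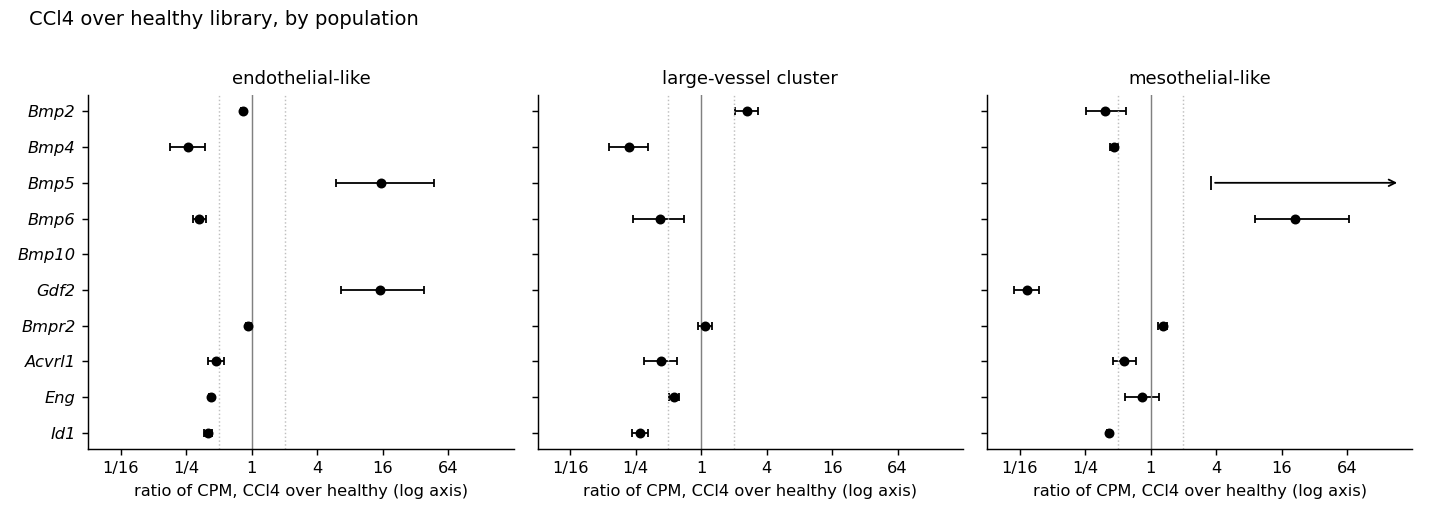
Ratio of the level in the CCl4 library to that in the healthy library for each member with at least 10 UMIs in either, on a logarithmic axis, in endothelial-like cells, in the large-vessel cluster and in mesothelial-like cells, with exact 95% conditional binomial intervals. Dotted lines mark 2-fold in either direction, and the arrow for Bmp5 is a lower bound because the healthy count is 0. Id1, Eng, Acvrl1, Bmp4 and Bmp6 lie at or below the lower line in endothelial-like cells, and Bmpr2 lies near 1.

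In endothelial-like cells, 5 of the 9 members with at least 10 UMIs in either library were at least 2-fold lower in the CCl4 library (16.6% of 13137 genes) and 2 were at least 2-fold higher (7.06%). The healthy class lay mainly in the Wnt2, Dll4, low-UMI and large-vessel clusters and the CCl4 class in the Esm1 and large-vessel clusters. The ratio of CCl4 to healthy was 0.260 for Bmp4 (0.177 to 0.369), 0.329 for Bmp6 (0.285 to 0.377) and 0.395 for Id1 (0.364 to 0.429). For the receptors it was 0.419 for Eng (0.406 to 0.433), 0.470 for Acvrl1 (0.395 to 0.556) and 0.929 for Bmpr2 (0.881 to 0.979). Bmp2 was at 0.828 (0.802 to 0.854). Bmpr2 and Bmp2 thus stayed within 2-fold, while Acvrl1, Eng, Bmp6 and Id1 were below it. This split did not follow receptor type among the other pathway genes. Of the type 1 receptor genes, Acvr1 (ratio 0.802) and Bmpr1a (0.809) were within 2-fold. Of the type 2 receptor genes, Acvr2b was lower (0.340, from 313 and 23 UMIs) and Acvr2a was at 1.87. The median log2 ratio of all genes in this class was -0.27, and under TMM scaling or without the 50 most abundant genes Acvrl1 was no longer at least 2-fold lower, which left 4 of the 5.

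The members that were higher in CCl4 endothelial-like cells were Bmp5, with 6 and 20 UMIs (ratio 15.4, 5.97 to 46.9), and Gdf2, with 8 and 26 UMIs (ratio 15.0, 6.60 to 38.4). Their CCl4 levels of 4.58 and 5.95 CPM lay below those of the immune cells of that library, 6.61 and 9.44, and are read as background. Beside these ratios, the summed level of 15 mesenchymal markers in endothelial-like cells was 1624 (healthy) and 4957 (CCl4), with all 15 detected in both. The 23 endothelial markers summed to 30540 and 18680, and the 15 hepatocyte markers to 1615 and 83.3. The part of these shifts in the ratios was not tested. The Bmp4 ratio was 0.390 without the large-vessel cells, 0.495 with a cluster of mixed markers counted as endothelial, and 1.65 when each library was clustered on its own.

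A few healthy cells fell into the Esm1 cluster, so that both libraries could be read within 1 cluster. The 35 healthy cells there (60043 UMIs) had Eng at 2282 CPM (1916 to 2697), against 955 (924 to 987) in the 576 CCl4 cells. Id1 was at 267 (152 to 433) against 128 (117 to 140), and Acvrl1 at 117 (46.9 to 240) against 29.7 (24.5 to 35.7). Bmp2 was at 999 (763 to 1286) against 1140 and Bmpr2 at 383 (243 to 575) against 371, both with overlapping intervals, and Bmp6 at 117 (46.9 to 240) against 52.9 (45.9 to 60.7), also overlapping. Within this cluster Eng, Id1 and Acvrl1 were thus lower in the CCl4 library, as in the class, whereas Bmp6, which was lower in the class, could not be distinguished at this depth. The 35 healthy cells were shallow, with a median of 1309 UMIs against 6448 in the CCl4 cells. Their Acvrl1 and Bmp6 levels rested on few UMIs.

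The large-vessel cluster held 268 healthy and 63 CCl4 cells. Of 7 members with enough UMIs, 4 were at least 2-fold lower in the CCl4 library (13.2% of genes) and 1 was higher (5.6%). Bmp4 had a ratio of 0.217 (0.140 to 0.322), Id1 0.272 (0.229 to 0.321), Bmp6 0.417 (0.238 to 0.688) and Acvrl1 0.427 (0.296 to 0.600). Eng was at 0.565 (0.505 to 0.630) and Bmpr2 at 1.08 (0.934 to 1.25). Bmp2 went the other way, from 83.9 to 221 CPM (ratio 2.64, 2.07 to 3.35), whereas in the whole class it was within 2-fold. The mesenchymal marker sum in these cells was 1134 and 3797.

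In mesothelial-like cells, 4 of 9 members were at least 2-fold lower in the CCl4 library (12.4% of 13276 genes) and 2 higher (11.7%). Each library had a mesothelial-like cluster of its own. Gdf2 had a ratio of 0.0725 (0.0550 to 0.0947), Bmp2 0.384 (0.253 to 0.590, from 38 and 63 UMIs), Id1 0.411 (0.395 to 0.428) and Bmp4 0.463 (0.425 to 0.505). The immune levels of Bmp2, 12.8 and 14.6 CPM, rested on 2 and 31 UMIs, most of the 31 in a single macrophage and monocyte-like cell. They set no firm background for the mesothelial-like Bmp2 levels of 9.88 and 3.79 CPM, and healthy cholangiocyte-like cells were at 6.13. Whether the mesothelial-like levels are background was not tested. Bmp6 was higher, with 5 healthy and 464 CCl4 UMIs (ratio 21.5, 9.14 to 66.5). Bmp5 had 0 and 47 UMIs, at least 3.63-fold higher against a floor of 3 counts, but its CCl4 level of 2.83 lay below the immune level and is read as background. Bmpr2 was at 1.29 (1.16 to 1.43), Acvrl1 at 0.569 (0.448 to 0.728) and Eng at 0.830 (0.584 to 1.20).

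The 8 mesothelial markers summed to 9054 in healthy and 3877 in CCl4 mesothelial-like cells, the 10 cholangiocyte markers to 2448 and 983, the 23 endothelial markers to 1510 and 298 and the 15 mesenchymal markers to 9964 and 8974. Their part in the ratios was not tested. With doublets kept, the Bmp6 ratio was 5.36 and the Gdf2 ratio 0.339, in the same directions, and the Eng ratio was 1.39, on the other side of 1.

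The other genes of the pathway came from a list of 50, of which 49 were matched. In endothelial-like cells, 7 of 8 targets with enough UMIs were at least 2-fold lower in the CCl4 library and 0 were higher, beside 16.6% and 7.06% of all genes. Without the hepatocyte genes Hamp and Hamp2 these were 5 of 6, and under TMM scaling Id4 was no longer among them (ratio 0.513). Id2 was at 534 and 139 CPM (ratio 0.260, 0.239 to 0.282), Id3 at 1567 and 551 (0.351, 0.337 to 0.366) and Id4 at 145 and 64.3 (0.445, 0.392 to 0.503), all inhibitors of the same kind as Id1. Atoh8, a transcription factor gene that responds to BMP, was at 7.73 and 2.75. Hey1, a Notch and ALK1 target, was at 5.95 and 1.83. Hamp (hepcidin) and its near copy Hamp2 are hepatocyte genes, at 3759 and 443 in healthy hepatocyte-like cells, and their levels in endothelial-like cells, 53.7 and 2.28 in the healthy library, went with the hepatocyte marker sum given above.

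The Id genes were not lower in every class. Id3 was at 1008 in healthy and 1014 in CCl4 mesothelial-like cells (ratio 1.005, 0.971 to 1.04), while Id2 (0.490) and Id4 (0.143) were lower there, as was Hamp, for 3 of 7 targets or 2 of 6 without Hamp, beside 12.4% of all genes. Under TMM scaling Id2 was within 2-fold there (0.526). In the large-vessel cluster Id2, Id3, Hamp and Hey1 were at least 2-fold lower, 4 of 7 or 3 of 6 without Hamp, beside 13.2% of all genes. Id4 was an endothelial-like transcript within the named classes, at 145 against at most 15.6 in another healthy class and at 64.3 against at most 3.17 in another CCl4 class.

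Among the signal transducers, only Smad6 of 6 was at least 2-fold lower in CCl4 endothelial-like cells. Smad6 encodes an inhibitory SMAD that is itself induced by BMP, and it was at 217 and 104 (ratio 0.478, 0.433 to 0.526), or 0.551 under TMM scaling, within 2-fold. Smad7, the other inhibitory SMAD, was at 310 and 155 (0.501, 0.463 to 0.543), just inside the 2-fold limit. The receptor-regulated Smad1 (1.06) and Smad5 (1.35) and the common Smad4 (1.21) were within it. Bambi, a decoy receptor, was at 69.6 and 14.4 (0.207, 0.158 to 0.267). Inhbb, an activin subunit, was higher, at 33.3 and 79.7 (2.40, 2.10 to 2.73), as was Fstl1, a secreted modulator, at 25.6 and 56.1 (2.19, 1.87 to 2.55). Fstl1 was at 766 in mesenchymal-like cells of the CCl4 library. Over all other pathway genes, 6 of 35 were higher and 13 of 35 lower in endothelial-like cells, beside 7.06% and 16.6% of all genes. Under TMM scaling Smad6, Id4 and Htra1 left the lower group and Acvr2a joined the higher one.

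As a description of pattern, each member was compared with all genes over 24 profiles (clusters with at least 50 cells, split by library) by Pearson correlation of log2(CPM + 1). The profiles share libraries and clusters, so the values carry no test. Bmp5 was most like Adamtsl2 (r = 0.98), Postn (0.97) and Frzb (0.97), Bmp10 most like D430019H16Rik (0.97) and Dach1 (0.96), and Gdf2 most like Rem1 (0.94), Hs3st3a1 (0.93) and Hand2 (0.93). Bmp2 was most like Hoxb5 (0.95), Bmp4 like Cavin3 (0.86), Bmp6 like Fam174b (0.94), Bmpr2 like Arhgap23 (0.94), Acvrl1 like Efnb1 (0.94), Eng like Tmem44 (0.95) and Id1 like Anxa3 (0.90). Between members, r was 0.93 for Bmp5 and Bmp10, 0.85 for Bmp5 and Gdf2, 0.89 for Bmp2 and Eng and 0.89 for Bmpr2 and Acvrl1. For Id1 the highest r with another member was 0.64, with Acvrl1.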

How the data were processed

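The authors deposited 1 matrix of raw UMI counts per library (gene by cell barcode). The file headers name Cell Ranger 3.1.0 for the healthy matrix (31053 genes) and 6.0.1 for the CCl4 matrix (32285 genes), whereas the submitters' processing notes name fastp and featureCounts 1.6.2. The notes list a human and a mouse genome build, and which one was used is not given in the sources used here; gene identifiers in both matrices are those of mouse. The deposited counts held 51122846 UMIs in 6297 healthy cells and 97611831 UMIs in 8460 CCl4 cells, and the 30406 shared genes held 99.9% and 99.6% of them.

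Cells with at least 500 UMIs, 200 genes and at most 30% mitochondrial UMIs were kept, and the highest Scrublet scores were removed as doublets at 0.8% per 1000 cells (277 and 487 cells). Both libraries were clustered together in scanpy 1.11.5 (2000 variable genes without any gene of the pathway, 10 principal components, 20 neighbours, Leiden resolution 1, seed 1). A cluster took the class with most markers at 2-fold over the cells of all other clusters together and in 10% of its cells, with a minimum of 3. These limits, the rule that clusters with markers of 2 classes stay unnamed and the further splitting of immune clusters were set after the data had been seen.

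Raw counts were summed per class and library and divided by the class total (CPM, scaled to 1000000, with exact Poisson intervals). Shares of cells were given at 2000 UMIs per cell, as the share expected on thinning, with shallower cells left out, and unthinned. Ratios used genes with at least 10 UMIs in either library of a class of at least 50 cells, with counts under 3 raised to 3 for the 2-fold call. All 10 members were described. Other pathway genes were named at 100 UMIs in a class and a 2-fold difference between libraries or classes, and those named otherwise here were chosen after their values were seen. The effect of TMM scaling on other pathway genes and the target counts without hepcidin genes were added after seeing the data. Members and lists were chosen with earlier results of these data known. The scripts were tested on simulated data. TMM factors came from edgeR 4.0.16, as an alternative. No test was run, since each group has 1 library. Some genes are not reported here.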

Additional observations from a re-analysis of the deposited data

How the results depend on the processing

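No paired analysis was possible because each group holds 1 library. Of the counts of members under other settings, 87 stayed within 1.5 times the reported count and 3 moved. In the CCl4 library 5 members, not 3, were highest in mesenchymal-like cells with doublets kept and also 5 with at least 1000 UMIs per cell, because only 7 and 3 cells were then named endothelial-like and that class was left out, and these settings gave no endothelial ratio. With at least 30 UMIs per gene, 0 members, not 2, were higher in CCl4 endothelial-like cells, since Bmp5 and Gdf2 were no longer counted. With each library clustered on its own no healthy cell was named mesothelial-like, so no mesothelial ratio was given, 7 members were highest in healthy endothelial-like cells, and the Bmp4 ratio in endothelial-like cells was 1.65 instead of 0.260, the only ratio past 2-fold to change direction, and the cause was not tested. Of the ratios within 2-fold, mesothelial Eng (0.830) was 1.39 with doublets kept and endothelial Bmpr2 (0.929) was 1.07 without the 50 most abundant genes. Of 212 ratios 41 were marked as moved and 1 as reversed, and of 239 levels 64 were marked as moved. This mark took in small shifts, such as Bmp2 in healthy endothelial-like cells (1246 to 1213 with 30 principal components). By over 1.5 times, 14 ratios and 2 levels moved. These levels were Bmp10 in mesenchymal-like cells (24.4 to 38.2 with separate clustering) and Acvrl1 in macrophage and monocyte-like cells (45.8 to 23.2 when clusters were named by the number of markers alone). Over the settings that gave a value, the endothelial ratios ranged from 0.323 to 0.455 for Id1, 0.383 to 0.482 for Eng, 0.247 to 0.378 for Bmp6, 0.364 to 0.541 for Acvrl1, 0.654 to 0.952 for Bmp2 and 0.819 to 1.07 for Bmpr2. Those of Bmp5 and Gdf2 reached 304.5 and 252.5 with the mixed cluster counted as endothelial, and 292 and 237 with each library clustered on its own. The other endothelial ratios under separate clustering, that of Bmp4 among them, came from this same class. Counting the mixed cluster as endothelial was a setting chosen after seeing the data, as was leaving out the large-vessel or the low-UMI cluster. Mesothelial ratios ranged from 0.3998 to 0.430 for Id1, 0.438 to 0.484 for Bmp4 and 1.27 to 1.38 for Bmpr2. Of 36 thinned shares, 34 moved with the depth chosen. Depth limits what the 9 healthy mesenchymal-like cells and the small immune classes can show.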

Other observations

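Several secreted BMP antagonists, but not all, were highest in mesothelial-like cells of the healthy library. Bmper was highest in endothelial-like cells (18.4 CPM) and Fstl3 in cholangiocyte-like cells (38.1). In mesothelial-like cells of that library Nbl1 was at 739 CPM, against at most 2.64 in another class. Chrdl1 was at 174 in them, Fst (follistatin) at 110 and Chrd (chordin) at 51.5. In CCl4 mesothelial-like cells Nbl1 was at 274 (ratio 0.371, 0.354 to 0.389), Chrdl1 at 9.94 (0.0573, 0.0480 to 0.0680), Fst at 37.7 (0.344, 0.303 to 0.390) and Chrd at 5.96 (0.116, 0.0900 to 0.148). Over the 16 antagonists and modulators, 7 of 12 with enough UMIs were at least 2-fold lower and 2 higher in CCl4 mesothelial-like cells, beside 12.4% and 11.7% of all genes. Under TMM scaling Htra1 was no longer among the lower ones. The markers of the class itself were also lower, as given with the members' ratios.

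In the CCl4 library, further ligands and modulators were highest in mesenchymal-like cells. Gdf10 was at 99.7 CPM, Gdf6 at 30.7, Bambi at 243 and the BMP9 and BMP10 target Tmem100 at 60.3 against at most 4.76 in another class. In the healthy library, Bmp7 (18.2), Inhba (53.2) and Bambi (229) were highest in cholangiocyte-like cells. Hepatocyte-like cells there held Tfr2 at 182 and Tmprss6 at 211, components of the hepcidin pathway, with Hamp at 3759. Type 1 receptors differed between classes, with Bmpr1a low in endothelial-like cells of both libraries and Acvrl1 low in hepatocyte-like cells, at 0.484 from 1 UMI.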
